A study of Arabidopsis thaliana with 15 samples.

Results

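The genes described here encode the oleosin-domain glycine-rich proteins and extracellular lipases of the Arabidopsis pollen coat. They are GRP14 (AT5G07510), GRP18 (AT5G07520), GRP17 (AT5G07530), GRP16 (AT5G07540), GRP19 (AT5G07550) and GRP20 (AT5G07560) on chromosome 5, and EXL4 (AT1G75910), EXL5 (AT1G75920) and EXL6 (AT1G75930) on chromosome 1. They were chosen by their gene identifiers, with no measured value in the rule but with earlier results of these data known. They are 9 of the 33323 genes in the deposited table. The table calls EXL4 and EXL6 extracellular lipases and EXL5 a GDSL-like lipase, so the name EXL5 rests on the gene list alone.

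The pollen coat is a lipid and protein paste that fills the cavities of the pollen wall. It is made in the tapetum, the innermost layer of the anther wall, and reaches the pollen when that layer breaks down. Oleosins sit on the surface of lipid droplets, which in the tapetum gather in organelles called tapetosomes. GRP17 is the best studied of the coat oleosins, and pollen that lacks it is slow to take up water on the stigma. The EXL proteins are GDSL-type lipases found in the same coat, and loss of EXL4 also delays hydration.

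The RNA came from unopened flowers of 5-week-old plants in the Col0 background, grown in long days. Wild type (WT) was compared with 2 single mutants of REF6, named ref6-3 and ref6C, with the double mutant elf6-3ref6C, and with elf6-3ref6Cjmj13G, which carries a JMJ13 allele as well; each of the 5 genotypes had 3 libraries. The JmjC-domain proteins REF6, ELF6 and JMJ13 take methyl groups off lysine 27 of histone H3, a mark that keeps genes silent. What lesion each allele holds and how many plants went into a library are not stated in the labels. Libraries held 26009591 to 34140165 counts, and ref6C replicate 3 stood apart, with a count in 29547 genes against 25055 to 25712 in the other 14 libraries. REF6 transcript lay at 47.4% to 53.1% of the WT mean in the 4 mutants, ELF6 at 4.13% in elf6-3ref6C and 14.2% in elf6-3ref6Cjmj13G, and JMJ13 at 36.5% in elf6-3ref6Cjmj13G.

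The genes lie in 2 tandem arrays in the TAIR10.1 assembly. The 6 oleosin genes follow one another on the minus strand over 13.7 kb (chr5:2377703-2391439), each with 2 coding exons. The 3 EXL genes lie on the plus strand over 8.45 kb (chr1:28501434-28509881), each with 5 coding exons. Identity between coding sequences was 70.0% to 77.9% among the EXL genes and 14.8% to 66.7% among the oleosins, highest between GRP14 and GRP18. The longest identical stretch in a pair was 39 bases among the oleosins and 33 among the EXL genes. Reads lying wholly within such a stretch could be shared between genes. The labels do not say how the authors placed such reads.

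The bases upstream of the genes are shown to describe short words that most, but not all, members of each array share there. A script searched the 250 bases before each annotated start for the longest word held by at least 5 of the 6 oleosins and for the longest held by at least 2 of the 3 EXL genes. The first was GTTTTGCATG, held by all oleosins except GRP20, and the second was TAGACGTCTAAA, held by EXL4 and EXL6. For the 7 genes that hold a word, the 150 bases nearest the start follow, 5′ to 3′ on the gene's strand, from the RefSeq TAIR10.1 assembly, with the shared word in capitals. They are chr5:2378830-2378979 (minus) for GRP14, chr5:2381318-2381467 (minus) for GRP18, chr5:2384526-2384675 (minus) for GRP17, chr5:2387250-2387399 (minus) for GRP16, chr5:2389250-2389399 (minus) for GRP19, chr1:28501284-28501433 (plus) for EXL4 and chr1:28507922-28508071 (plus) for EXL6.
GRP14: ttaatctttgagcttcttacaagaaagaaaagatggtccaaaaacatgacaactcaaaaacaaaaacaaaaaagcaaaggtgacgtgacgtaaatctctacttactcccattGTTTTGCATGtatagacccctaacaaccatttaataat
GRP18: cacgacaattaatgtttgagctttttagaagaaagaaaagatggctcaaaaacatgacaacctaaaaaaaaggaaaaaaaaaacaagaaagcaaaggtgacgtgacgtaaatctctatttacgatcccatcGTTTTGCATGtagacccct
GRP17: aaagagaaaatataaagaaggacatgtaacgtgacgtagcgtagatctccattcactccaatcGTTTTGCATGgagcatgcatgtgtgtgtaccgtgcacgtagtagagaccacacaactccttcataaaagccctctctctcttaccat
GRP16: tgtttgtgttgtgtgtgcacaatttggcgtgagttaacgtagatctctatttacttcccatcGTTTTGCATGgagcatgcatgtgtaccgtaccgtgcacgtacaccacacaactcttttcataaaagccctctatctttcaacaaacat
GRP19: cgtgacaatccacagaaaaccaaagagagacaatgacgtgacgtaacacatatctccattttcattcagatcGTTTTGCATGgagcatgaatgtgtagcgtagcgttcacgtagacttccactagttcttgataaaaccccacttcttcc
EXL4: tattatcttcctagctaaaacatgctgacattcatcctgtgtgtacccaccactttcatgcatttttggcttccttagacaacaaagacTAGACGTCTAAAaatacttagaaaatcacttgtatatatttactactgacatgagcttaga
EXL6: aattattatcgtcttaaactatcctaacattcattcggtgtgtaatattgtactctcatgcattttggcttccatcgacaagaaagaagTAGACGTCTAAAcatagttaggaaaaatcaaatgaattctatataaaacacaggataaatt

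The oleosin word began 87 bases before the annotated start of GRP17, 88 before GRP16, 78 before GRP19, 38 before GRP14 and 19 before GRP18. The EXL word began 61 bases before both EXL4 and EXL6. GRP20 and EXL5 hold neither word and are not printed, although their transcripts moved with the others. The 250-base windows of GRP20 and EXL4 run into the next gene, which lies 141 and 179 bases away. On either strand, the oleosin word was in 24 (0.0875%) of the 27443 windows of 250 bases searched before protein-coding genes. Besides the 5 oleosins, 19 windows held it, among them that of AT5G07600, an oleosin family gene outside the array. The EXL word was in 2 windows, those of EXL4 and EXL6 themselves. The words were picked after the sequences were seen and describe these windows; whether a factor binds them, or how they came to be shared, was not tested.

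The same windows were searched for named motifs on both strands. The E-box CANNTG was in the windows of 4 of the 9 genes (GRP17, GRP16, EXL4 and EXL6) and in 55.3% of all windows. The TATA box TATAAA was in 2 of 9 windows (GRP17 and EXL6) and in 47.3% of all. The G-box CACGTG, which is also an E-box, was in 0 of 9 and in 6.49% of all. The words CTCTGTTT, CTCTGTTC, CTCTGCTT and CTCTGCTC, which the zinc fingers of REF6 are known to bind, were in 0 of 9 windows and in 5.77% of all. That says nothing of sites elsewhere in the genes.

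Per unit of length, the coat oleosin GRP19 was among the most abundant transcripts of the WT flower. Levels of different genes were compared in FPKM, the deposited values scaled by transcript length and library size. In WT, GRP19 was at 1597 ± 74 FPKM (SD, n = 3) and ranked 13 among all genes. GRP17 followed at 623 ± 16, EXL4 at 475 ± 9.8 and GRP20 at 258 ± 8.8. EXL6 was at 188 ± 7.4, GRP14 at 167 ± 7.6, GRP16 at 127 ± 4.1, GRP18 at 61.1 ± 2.1 and EXL5 at 54.0 ± 0.54. The WT libraries of neighbours in this order did not overlap. In elf6-3ref6C, GRP19 stood at 693 ± 12 FPKM and ranked 115.

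**Figure D1:**
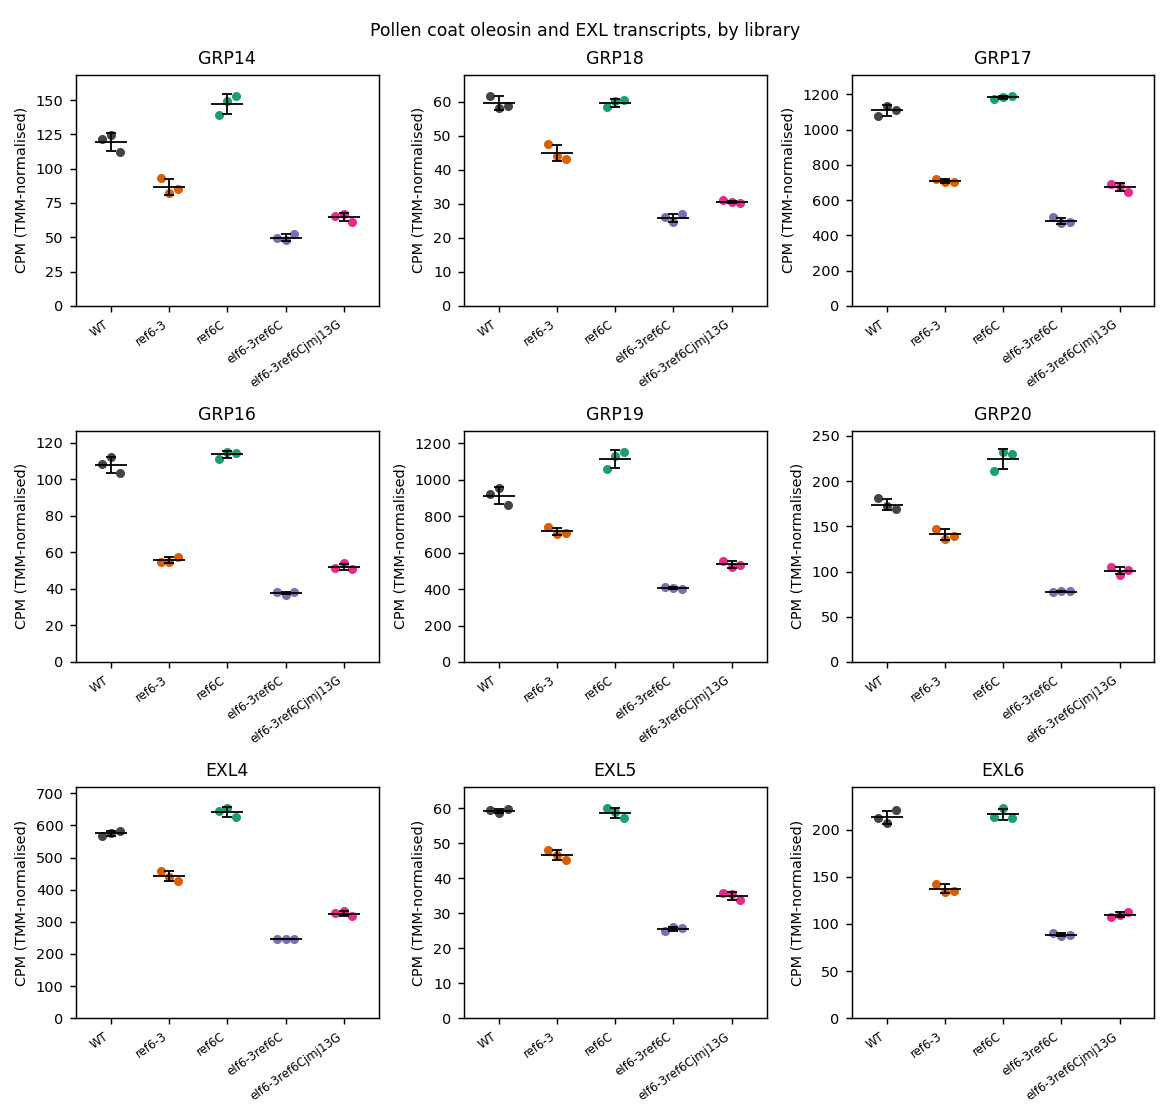
Level of each gene in each library, in CPM (TMM-normalised) on axes that start at 0; points are libraries, bars the mean with its SD over 3 libraries. In every panel elf6-3ref6C is lowest, then elf6-3ref6Cjmj13G, then ref6-3, with WT and ref6C above them, as in GRP19 with means of 405, 536, 717, 912 and 1113 CPM.

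All 9 genes followed one order of genotype means: elf6-3ref6C lowest, then elf6-3ref6Cjmj13G, ref6-3 and WT. From here levels are CPM, counts scaled by library size with TMM factors. Summed over the 9 genes, WT held 3330.3 ± 61 CPM (SD, n = 3) and ref6C 3759.9 ± 75, or 113% of WT. The sum was 2379 ± 60 CPM (71.4% of WT) in ref6-3, 1929.7 ± 40 (57.9%) in elf6-3ref6Cjmj13G and 1439.9 ± 25 (43.2%) in elf6-3ref6C. In whole unopened flowers, fewer tapetum cells, a different mix of flower stages and less RNA per cell cannot be told apart.

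GRP17 encodes the oleosin of mature pollen coats, and the reference annotation places its transcript at flower stages 10 to 12. Its level was 1078, 1136 and 1114 CPM in the WT libraries and 719, 703 and 704 in ref6-3. The ref6C libraries held 1177, 1183 and 1194 CPM. In elf6-3ref6C the values were 501, 469 and 474, and in elf6-3ref6Cjmj13G 693, 682 and 649. Every ref6C library was above every WT library by a small margin, and the ref6-3 libraries lay just above those of elf6-3ref6Cjmj13G.

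GRP19, a short oleosin, was at 923, 955 and 859 CPM in WT and 738, 704 and 709 in ref6-3. In ref6C it was at 1057, 1130.1 and 1153 CPM. The elf6-3ref6C libraries had 412, 404 and 399.8 CPM and the elf6-3ref6Cjmj13G libraries 556, 519 and 534. No 2 genotypes overlapped, and ref6C was the highest.

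GRP16, annotated at flower stages 11 and 12, fell furthest of the oleosins in ref6-3. WT libraries held 109, 112 and 103 CPM, and ref6-3 libraries 54.9, 54.7 and 57.6. In ref6C the values were 111, 115 and 115, within the upper range of WT and beyond it. In elf6-3ref6C they were 38.1, 36.9 and 38.3 CPM, and in elf6-3ref6Cjmj13G 51.6, 53.9 and 50.9. The last group came within 1 CPM of the lowest ref6-3 library without overlapping it. GRP16 contains a short annotated gene, AT5G07545, on the other strand, and the labels do not say whether counting used strand.

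The other 3 oleosins kept the same order. GRP20 was at 169 to 181 CPM in WT, 136 to 147 in ref6-3, 212 to 233 in ref6C, 77.3 to 78.4 in elf6-3ref6C and 96.3 to 105 in elf6-3ref6Cjmj13G. GRP14 was at 112 to 124 CPM in WT, 82.2 to 93.1 in ref6-3, 139 to 153 in ref6C, 47.7 to 52.2 in elf6-3ref6C and 61.4 to 67.0 in elf6-3ref6Cjmj13G. For both genes ref6C lay wholly above WT. GRP18, annotated at stage 12, was the exception: its ref6C libraries, at 58.4 to 60.5 CPM, lay inside the WT range of 58.1 to 61.9. GRP18 libraries held 43.1 to 47.6 CPM in ref6-3, 24.6 to 27.0 in elf6-3ref6C and 30.4 to 31.0 in elf6-3ref6Cjmj13G.

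Among the lipases, EXL4 was the most abundant. Its libraries held 566, 575 and 584 CPM in WT, 458, 439 and 428 in ref6-3, and 645, 655 and 626 in ref6C. In elf6-3ref6C they held 248, 247 and 248 CPM, and in elf6-3ref6Cjmj13G 327, 334 and 317. No genotypes overlapped. EXL6 was at 207 to 220.5 CPM in WT, 134 to 143 in ref6-3, 87.1 to 90.3 in elf6-3ref6C and 107 to 113 in elf6-3ref6Cjmj13G, and its ref6C libraries, at 212 to 223, overlapped WT. EXL5 was the lowest, at 58.6 to 59.7 CPM in WT, 45.1 to 48.0 in ref6-3, 24.9 to 25.98 in elf6-3ref6C and 33.6 to 35.8 in elf6-3ref6Cjmj13G. The ref6C libraries of EXL5, at 57.1 to 60.0 CPM, spanned the WT range. A non-coding RNA gene, AT1G09603, overlaps the start of EXL5 on the other strand.

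In ref6-3 all 9 genes were lower than in WT. Genes were tested with edgeR's quasi-likelihood test over the 22411 genes that passed a filter on low counts, which all 9 did, with a call where the p adjusted by Benjamini-Hochberg was below 0.05. In ref6-3, 18.5% of all tested genes were called lower. GRP16 fell by 0.96 ± 0.03 log2 units (SE), with an adjusted p of 1.1e-18. GRP17 fell by 0.65 ± 0.03 (adjusted p = 1.2e-16) and EXL6 fell by 0.63 ± 0.03 (adjusted p = 1.5e-15), while the other 6 fell by between 0.30 and 0.46. A fall of 2-fold or more, which 4.99% of tested genes had, was seen in 0 of the 9. The largest and the smallest fall, those of GRP16 and GRP20, were in the same array.

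In ref6C no member was called lower. Of the 9, 5 were called higher than in WT and 0 lower, where 18.4% of all tested genes were called higher and 20.4% lower. The largest rise was that of GRP20, with a log2 fold change of 0.37 ± 0.04 (SE; adjusted p = 2.4e-09), followed by GRP14 at 0.30 ± 0.04, GRP19 at 0.29 ± 0.03, EXL4 at 0.16 ± 0.03 and GRP17 at 0.09 ± 0.03 (adjusted p = 0.0077). The call on GRP17 ended without WT replicate 1 (adjusted p = 0.054). GRP16 had a log2 fold change of 0.07 (95% interval 0.01 to 0.13, adjusted p = 0.063) and was called without WT replicate 2 (adjusted p = 0.016) or without ref6C replicate 1 (adjusted p = 0.046). GRP18 was at 0.00 (-0.07 to 0.08), EXL5 at -0.01 (-0.08 to 0.05) and EXL6 at 0.02 (-0.04 to 0.08). Without ref6C replicate 3, the library that stood apart, GRP14, GRP17, GRP19, GRP20 and EXL4 were called higher and no other member was called.

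In elf6-3ref6C all 9 genes were called lower, each by more than 2-fold, where 34.8% of tested genes were called lower and 9.93% were lower by 2-fold or more. GRP16 fell by 1.52 ± 0.04 log2 units (SE, adjusted p = 2.8e-23) and the other 8 fell by between 1.16 and 1.26. The WT levels of those 8 ran from 59.3 to 1109 CPM. In elf6-3ref6Cjmj13G all 9 were again called lower, where 34.4% of tested genes were. The falls ran from 0.72 for GRP17 to 1.05 for GRP16, the 1 member past 2-fold, where 10.1% of tested genes were lower by that much. The 4 comparisons with WT share the same WT libraries. The median over all tested genes lay between -0.01 and 0.00 in each of them.

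**Figure D2:**
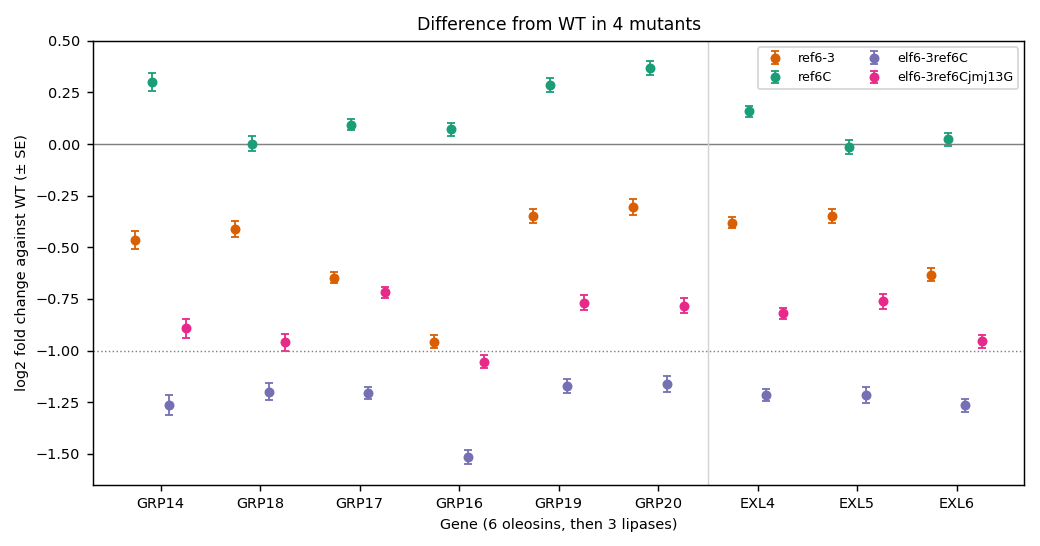
Log2 fold change of each gene against WT, with its SE, in 4 mutants; the dotted line marks a 2-fold fall. The elf6-3ref6C points lie between -1.52 and -1.16, and the ref6C points between -0.01 and 0.37.

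Comparisons between mutants used the same fit. Against ref6-3, the ref6C libraries were higher in all 9 genes, where 17.2% of tested genes were called higher. The differences ran from 0.33 ± 0.03 (SE) in EXL5 to 1.03 ± 0.03 in GRP16, so that the 2 REF6 alleles stood apart. REF6 transcript was at 32.9 ± 1.4 CPM (SD, n = 3) in ref6-3 and 36.3 ± 0.49 in ref6C. What part REF6 level had in the difference was not tested. Against ref6C, the elf6-3ref6C libraries were lower in all 9 genes, where 30.6% of tested genes were called lower. Each was lower by more than 2-fold, where 5.7% of tested genes were lower by that much. The falls were smallest in GRP18 and EXL5 and ran from 1.29 in EXL6 to 1.59 in GRP16 in the other 7 genes. The elf6-3ref6Cjmj13G libraries were also lower than ref6C in all 9, where 30.5% were called lower, by 0.75 in EXL5 to 1.19 in GRP14.

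With jmj13G added, the genes were higher, not lower. Against elf6-3ref6C, elf6-3ref6Cjmj13G was higher in all 9, where 8.58% of tested genes were called higher and 11.4% lower. The rise was largest in GRP17, at 0.49 ± 0.03 log2 units (SE, adjusted p = 3.9e-13), and smallest in GRP18, at 0.24 ± 0.05 (adjusted p = 3.4e-04). ELF6 transcript was also higher in this genotype, at 8.67 ± 1.0 CPM (SD, n = 3) against 2.53 ± 0.14 in elf6-3ref6C, and its part in the result was not tested.

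Against ref6-3, both combined mutants were lower in all 9 genes, where 28.7% (elf6-3ref6C) and 27.7% (elf6-3ref6Cjmj13G) of tested genes were called lower. In elf6-3ref6C the falls ran from 0.56 in GRP17 to 0.87 in EXL5. In elf6-3ref6Cjmj13G they ran from 0.32 to 0.55 in 7 genes. GRP17 (-0.07, adjusted p = 0.034) and GRP16 (-0.10, adjusted p = 0.026) differed little. Their calls ended when single libraries were left out, with adjusted p-values of up to 0.216 for GRP17 (without elf6-3ref6Cjmj13G replicate 3) and 0.144 for GRP16 (without ref6-3 replicate 3). GRP17 also missed the threshold without ref6-3 replicate 1 (0.121), ref6-3 replicate 3 (0.061) or ref6C replicate 3 (0.051), and GRP16 without elf6-3ref6Cjmj13G replicate 1 (0.076) or replicate 3 (0.104).

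The mix of coat transcripts was described by ratios and shares, with no test. The ratio of oleosin to EXL transcripts had genotype means between 2.80 ± 0.05 (ref6-3; SD, n = 3) and 3.10 ± 0.13 (ref6C), against 2.93 ± 0.12 in WT. Within the oleosins, GRP17 made up 44.7 ± 1.3% of the counts in WT and 40.4 ± 0.45% in ref6-3, and GRP19 made up 36.7 ± 1.0% and 40.9 ± 0.13%. GRP16 made up 4.35 ± 0.06% in WT, 3.18 ± 0.13% in ref6-3, 3.58 ± 0.14% in elf6-3ref6Cjmj13G, 3.51 ± 0.07% in elf6-3ref6C and 3.998 ± 0.05% in ref6C. In each library of the 4 mutants the GRP16 share was below that of each WT library. Across the 15 libraries the 36 pairs of genes had Pearson correlations of log2-CPM between 0.934 and 0.997 (median 0.972), a description over libraries that share 5 genotypes.

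Next to the arrays, some neighbours moved along and others did not. ATA27 (AT1G75940), a glycosyl hydrolase gene just beyond EXL6 and known from the tapetum, was at 1070, 1145 and 1096 CPM in WT, 864, 850.3 and 854 in ref6-3, and 1037, 989.8 and 999.8 in ref6C. The elf6-3ref6C libraries held 530.1, 518 and 528 CPM, and the elf6-3ref6Cjmj13G libraries 619, 617 and 599. All WT libraries were above those of the mutants. It was called lower in ref6C (log2 fold change -0.13 ± 0.03, SE; adjusted p = 2.2e-04), as in the other 3 mutants (-0.37, -1.07 and -0.85).

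On the other side of EXL4 lies AT1G75900, a GDSL-like lipase gene on the same strand. Its WT libraries held 37.3, 37.1 and 39.0 CPM and its elf6-3ref6C libraries 42.3, 41.8 and 43.0. Its log2 fold change was 0.09 ± 0.04 (SE; adjusted p = 0.061) in ref6-3, and it was called higher in ref6C (0.12), elf6-3ref6C (0.17) and elf6-3ref6Cjmj13G (0.10). The next gene, AT1G75890, at 8.77 to 9.81 CPM in WT, was called higher in ref6C (0.21, adjusted p = 0.031) and lower in elf6-3ref6C (-0.21, adjusted p = 0.029), where its 7.58 to 9.01 CPM overlapped WT. AT1G75880, an SGNH hydrolase gene beyond it, fell in ref6-3 (-0.33), elf6-3ref6C (-0.77) and elf6-3ref6Cjmj13G (-0.50). AT1G75880 and the EXL genes, on either side of AT1G75890 and AT1G75900, were thus lower in the same 3 mutants.

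Beside GRP20, AT5G07570, a glycine/proline-rich protein gene read in the opposite direction, was low, at 3.20 to 4.05 CPM in WT and 0.66 to 1.003 in elf6-3ref6C. It fell by 1.47 log2 units in ref6-3, by 2.02 in elf6-3ref6C and by 1.29 in elf6-3ref6Cjmj13G, more than the oleosins in each, and was at -0.19 ± 0.13 (SE; adjusted p = 0.27) in ref6C. AT5G07571, an oleosin family gene at 2.43 to 2.70 CPM in WT, fell in the same 3 (-1.32, -1.76 and -1.14). It overlaps AT5G07572 on the other strand (0.65 to 0.96 CPM in WT; log2 fold changes of -1.61, -2.11 and -1.81), so reads of the 2 may not be told apart.

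On the far side of GRP14, AT5G07490 was at 4.33 to 4.79 CPM in WT, 4.42 to 4.73 in ref6C, 1.64 to 2.34 in ref6-3, 1.78 to 2.36 in elf6-3ref6Cjmj13G and 1.25 to 1.39 in elf6-3ref6C. It fell by 1.13 log2 units in ref6-3, by 1.78 in elf6-3ref6C and by 1.21 in elf6-3ref6Cjmj13G, so falls were not limited to the oleosin genes of this stretch. PEI1, between it and GRP14, was at 0.61 to 0.84 CPM in WT and 0.43 to 0.51 in elf6-3ref6C, and KUOX1 was at no more than 0.23 CPM in WT. SKP1, a ubiquitin ligase subunit gene beyond ATA27, was at 200.4 to 217 CPM in WT and 220.6 to 225 in elf6-3ref6C (log2 fold change 0.10 ± 0.03, SE; adjusted p = 0.0065).

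**Figure D3:**
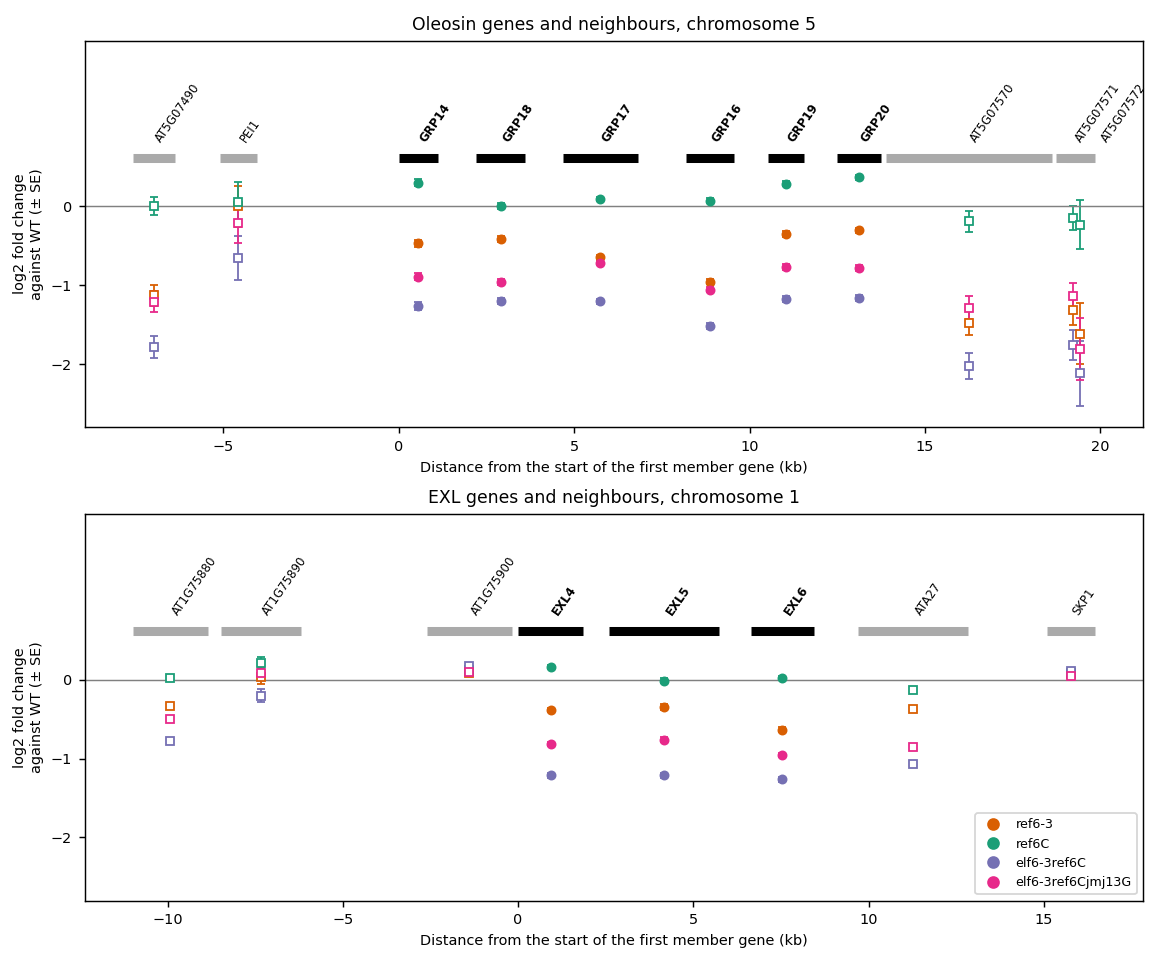
Log2 fold change against WT, with its SE, along each array and its tested neighbours, plotted at the gene's middle against distance in kb from the first member; black bars and filled points are the 9 genes, grey bars and open squares their neighbours. The 3 EXL genes lie between ATA27, which falls with them, and AT1G75900, which stays between 0.09 and 0.17 in all 4 mutants.

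Of 12 other oleosin genes, AT5G07571 beside the array among them, 9 were tested, and the WT libraries of the list summed to 60.3 to 61.8 CPM. In ref6-3, 5 of the 9 were called lower and 0 higher (median -0.37), where 18.5% of all tested genes were called lower and 16.2% higher. In ref6C 1 was lower and 3 were higher (median 0.08), where 20.4% of all were lower and 18.4% higher. In elf6-3ref6C 6 were lower and 1 higher (median -1.16), where 34.8% of all were lower and 33.7% higher. In elf6-3ref6Cjmj13G 5 were lower and 1 higher (median -0.87), where 34.4% of all were lower and 32% higher. AT5G07600 carries the oleosin word of the array upstream. It was at 33.4 to 33.9 CPM in WT and 14.5 to 15.7 in elf6-3ref6C, with log2 fold changes of -0.37 ± 0.04 (SE) in ref6-3, -1.16 ± 0.04 in elf6-3ref6C and -1.06 ± 0.04 in elf6-3ref6Cjmj13G. AT5G61610, another oleosin family gene, was lower in the same 3 (-0.72, -1.35 and -0.87) and higher in ref6C (0.31 ± 0.08, adjusted p = 0.0032). Outside this list, AT5G07230 also carries the oleosin word upstream, with another pattern. Its libraries held 110 to 126 CPM in WT, 133 to 140 in ref6-3 and 90.6 to 101 in ref6C. They held 76.5 to 79.7 in elf6-3ref6C and 66.4 to 71.8 in elf6-3ref6Cjmj13G. Whether the word goes with a pattern of levels was not tested.

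Genes that the tapetum uses earlier, to make sporopollenin for the outer pollen wall, were lower in ref6C and changed little in ref6-3. Of 9 such genes, all were called lower in ref6C (median log2 fold change -0.54), whereas 3 were called higher and 1 lower in ref6-3 (median 0.03). All 9 were also lower in elf6-3ref6Cjmj13G (median -0.68) and elf6-3ref6C (median -0.71). The shares of all tested genes called lower were 20.4% in ref6C, 34.4% in elf6-3ref6Cjmj13G and 34.8% in elf6-3ref6C. In ref6-3 they were 18.5% lower and 16.2% higher. MS2, a fatty acyl reductase gene, was at 380.2, 404 and 399.8 CPM in WT, 363, 372 and 373 in ref6-3, and 206, 191 and 197 in ref6C. The ref6C libraries overlapped those of elf6-3ref6C, at 190.5 to 192 CPM, and the ref6-3 libraries lay below WT. Its log2 fold change was -0.10 in ref6-3 and -0.996 in ref6C, and against WT it was -1.05 in the double mutant and -1.11 in elf6-3ref6Cjmj13G. In ref6C against ref6-3, all 9 sporopollenin genes were lower (median -0.57, MS2 -0.90), where 16.8% of tested genes were called lower, while all 9 coat genes were higher (median 0.66). Against elf6-3ref6C, 0 of the 9 sporopollenin genes were called in either direction in elf6-3ref6Cjmj13G, with log2 fold changes between -0.07 and 0.05. Most tested genes were not called there either, with 8.58% called higher and 11.4% lower. All 9 coat genes were higher in that comparison.

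The sum of the 9 coat genes over that of the 9 sporopollenin genes gives the same contrast library by library. It was 1.64, 1.63 and 1.60 in WT, 1.17, 1.12 and 1.12 in ref6-3, and 2.54, 2.81 and 2.74 in ref6C. In elf6-3ref6C it was 1.18, 1.17 and 1.17, and in elf6-3ref6Cjmj13G 1.61, 1.58 and 1.54. Libraries of ref6C were above all others and those of ref6-3 and elf6-3ref6C below all others. These values are a description, with no test.

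Of 11 regulators of the tapetum, 4 were called lower in ref6-3 (median -0.06), where 18.5% of tested genes were called lower. In ref6C 10 were lower (median -0.31), where 20.4% of all were. In elf6-3ref6C 9 were lower (median -0.87), where 34.8% of all were. In elf6-3ref6Cjmj13G 9 were lower and 1 higher (median -0.85), where 34.4% and 32% of all were. MS1, a PHD-finger protein that acts late in the tapetum, was at 32.3 to 32.9 CPM in WT, 23.9 to 25.1 in ref6-3 and 15.5 to 17.1 in ref6C. Its log2 fold change was -0.41 in ref6-3 and -0.996 in ref6C, and -1.11 and -1.19 in the genotypes with elf6-3 and with elf6-3 and jmj13G. MS1 was thus lower in ref6C than in ref6-3, by 0.58 ± 0.05 (SE), whereas the coat genes were higher.

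Of 21 other late tapetum and pollen coat genes, 12 were called lower and 2 higher in ref6-3 (median -0.17), and 13 lower and 3 higher in ref6C (median -0.20). In elf6-3ref6C 19 were lower and 2 higher (median -0.92), and in elf6-3ref6Cjmj13G 18 were lower and 2 higher (median -0.83). The whole tested set gives the scale: ref6-3 had 18.5% lower calls and 16.2% higher calls, and ref6C had 20.4% and 18.4%. For the double mutant the whole set gave 34.8% lower and 33.7% higher, and with jmj13G added 34.4% and 32%. AT1G23240 is a caleosin-related gene, and caleosins are, like oleosins, lipid droplet proteins. It was at 108 to 111 CPM in WT, 41.6 to 46.2 in ref6-3, 102 to 106 in ref6C, 27.8 to 30.5 in elf6-3ref6C and 45.8 to 48.8 in elf6-3ref6Cjmj13G. Its falls of 1.30, 1.92 and 1.21 log2 units in ref6-3, elf6-3ref6C and elf6-3ref6Cjmj13G were larger than those of all 9 coat genes, and in ref6C it was at -0.07 ± 0.03 (SE; adjusted p = 0.089). GLOX1, a glyoxal oxidase gene of the anther, went from 14.2 to 14.7 CPM in WT to 0.34 to 0.64 in ref6-3 and also fell in ref6C, by 2.65 log2 units.

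Genes of mature pollen were lower in 3 of the mutants and mostly lower in ref6C. All 17 listed were called lower in ref6-3 (median -1.67, against -0.41 for the coat genes), elf6-3ref6C (-2.06 against -1.21) and elf6-3ref6Cjmj13G (-1.74 against -0.82), and in ref6C 12 were called lower and 5 were not called (-0.29 against 0.09). Their summed level was 947 to 1002 CPM in WT, 302 to 321 in ref6-3, 786 to 813 in ref6C, 233 to 242 in elf6-3ref6C and 326 to 341 in elf6-3ref6Cjmj13G. As a scale for the calls on these 17 genes, lower calls took in 18.5% of the whole tested set for ref6-3. That share was 20.4% for ref6C, 34.8% for the double mutant and 34.4% with jmj13G added. VGD1, a pectin methylesterase of the pollen tube, had a log2 fold change of -1.91 ± 0.03 (SE) in ref6-3 and -0.29 ± 0.03 in ref6C. The ratio of coat genes to mature pollen genes was 3.39 to 3.46 in WT, 5.87 to 6.29 in elf6-3ref6C and 7.39 to 7.76 in ref6-3, with no overlap between these groups. What part the level of pollen genes had in the coat gene results was not tested.

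**Figure D4:**
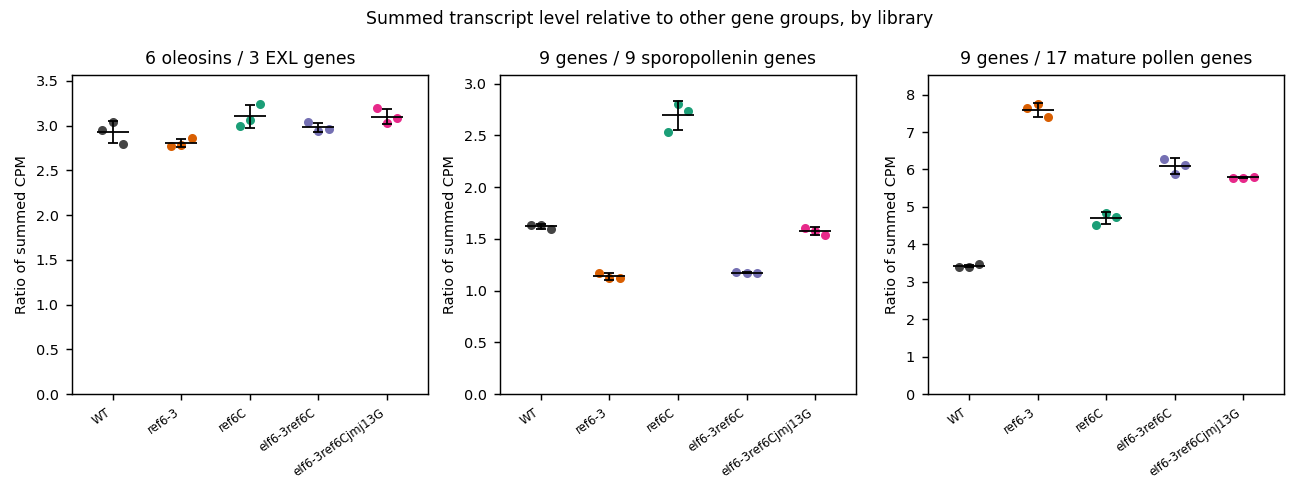
Ratios of summed CPM by library on axes that start at 0, with the mean and SD over 3 libraries: oleosins over EXL genes, the 9 coat genes over 9 sporopollenin genes, and the 9 coat genes over 17 mature pollen genes. The first lies between 2.80 and 3.10 in mean, while the second goes from 1.14 in ref6-3 to 2.69 in ref6C.

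Some markers of other flower parts were called in the mutants, and each list holds few genes. As a baseline, all tested genes gave 18.5% lower and 16.2% higher calls for ref6-3, with 20.4% and 18.4% for ref6C. The baseline was 34.8% lower and 33.7% higher for elf6-3ref6C, with 34.4% and 32% for elf6-3ref6Cjmj13G. Calls on carpel and ovule markers in ref6C lay near it, whereas those on green tissue markers in ref6-3 did not. The summed meiocyte markers were at 53.7 to 56.0 CPM in WT, 50.4 to 51.2 in ref6-3, 47.6 to 48.2 in ref6C, 40.4 to 42.6 in elf6-3ref6C and 39.0 to 42.3 in elf6-3ref6Cjmj13G. Of 6 genes, 0, 2, 5 and 4 were called lower in these mutants, and 0 higher in each. The summed carpel and ovule markers were at 161 to 167 CPM in WT, 149.6 to 150.7 in ref6-3, 161 to 168 in ref6C, 133 to 137 in elf6-3ref6C and 152 to 159.9 in elf6-3ref6Cjmj13G. Of these 6 genes, 5 were called lower and 1 higher in ref6-3, 1 lower and 1 higher in ref6C, 5 lower in elf6-3ref6C, and 3 lower and 2 higher in elf6-3ref6Cjmj13G. Green tissue markers were at 12255 to 13492 CPM in WT, 15256 to 16089.6 in ref6-3, 13237 to 13891 in ref6C, 12059 to 12317 in elf6-3ref6C and 10715 to 11435 in elf6-3ref6Cjmj13G. Of these 7 genes, 7 were called higher in ref6-3, 3 higher and 2 lower in ref6C, 2 higher and 4 lower in elf6-3ref6C, and 1 higher and 6 lower in elf6-3ref6Cjmj13G. Petal and stamen identity and jasmonate MYB genes fell in 5 of 5 tested in ref6-3 (median -1.72), elf6-3ref6C (-1.93) and elf6-3ref6Cjmj13G (-2.37) and in 3 of 5 in ref6C. Their part in the coat gene results was not tested.

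The genes most like the coat genes over the 15 libraries were found by correlating the log2-CPM of 18418 genes with the mean of the 9 standardised profiles. The highest were XTH3 (r = 0.997), a xyloglucan endotransglucosylase/hydrolase gene, and G3Pp1 (r = 0.996). AT3G18360, AT4G22240, AT1G23570, AT4G33355, AT1G75880 and AT3G51000 followed, with r of 0.992 to 0.996. AT4G33355 is annotated as a lipid-transfer family gene, AT4G22240 as a plastid-lipid associated one and AT3G51000 as an alpha/beta-hydrolase. AT1G75880 lies near the EXL array, with AT1G75890 and AT1G75900 between.

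The authors' deposited table gave the same counts of calls for the 9 genes: 9 lower in ref6-3, 5 higher in ref6C, 9 lower in elf6-3ref6C and 9 lower in elf6-3ref6Cjmj13G. Its log2 fold changes, with the sign turned to mutant over WT, ran from -0.94 to -0.30, -0.01 to 0.35, -1.497 to -1.15 and -1.04 to -0.71.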

How the data were processed

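Total RNA from unopened flowers was made into stranded total RNA libraries and sequenced on an Illumina NextSeq instrument, per the labels' protocols. The authors deposited whole-number counts per gene and FPKM values; per the file headers the FPKM came from RSEM. TAIR10, STAR, DESeq2 and RSEM 1.2.22 are listed, without roles, in the submitters' processing notes. The authors' deposited log2 fold changes, p-values and adjusted p-values are WT over mutant (sign turned here), and ref6C replicate 3 was left out of them, per the file headers. The design foresaw estimated counts, but the deposited ones were whole and were used as they stand; the labels do not say whether they are rounded RSEM estimates or how shared and antisense reads were counted.

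Groups and replicate numbers came from the sample titles. Nothing in the labels says that replicates are separate plants, and the p-values therefore reflect the spread between libraries alone, which may be technical. No 2 replicates agreed within sampling noise (chi-square over degrees of freedom 1.41 to 2.81).

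The counts of all 15 libraries were fitted together by edgeR's quasi-likelihood F-test (version 4.0.16 under R 4.3.3, TMM factors, filterByExpr), which tested 22411 genes holding at least 99.88% of each library. Adjusted p-values are Benjamini-Hochberg over all of them, for 10 comparisons. SEs were derived from log2 fold changes and F values. The biological coefficient of variation was 2.51%, so small differences pass. The script was tested on simulated data. Member counts were 638 to 38854 per library. Coordinates and upstream bases came from RefSeq TAIR10.1; the deposited table holds none. Alternatives were DESeq2 1.42.0, other scalings and filters, pairwise fits, a replicate block and leaving out each library.

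The members and gene lists were chosen with earlier results of these data known. Named genes are all members, the nearest 3 protein-coding genes on each side of an array, and the 8 genes most like the members. Up to 3 called genes of a list with the smallest adjusted p are named too. Sporopollenin, tapetum regulator, late tapetum, mature pollen, meiocyte, carpel and ovule, green tissue, petal and stamen, and other oleosin lists are described by counts and medians.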

Additional observations from a re-analysis of the deposited data

How the results depend on the processing

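The counts of members called in each comparison stayed within 1.5 times the reported ones under all 22 alternatives. Of 1980 member values (90 member comparisons under 22 alternatives), 1961 kept their direction and side of the threshold, 9 lost a call, 2 gained one and 8 changed sign. The sign changes were all in ref6C against WT and in genes not called. GRP18 was at -0.0073 with total-count scaling, -0.0028 with no filter, -0.018 without WT replicate 2, -0.0064 without WT replicate 3, -0.0043 without ref6C replicate 2 and -0.0074 without ref6C replicate 3. EXL5 was at 0.0043 without ref6C replicate 3 and EXL6 at -0.00025 without ref6C replicate 2. With single libraries left out, GRP18 ran from -0.018 to 0.029, EXL5 from -0.031 to 0.0043 and EXL6 from -0.00025 to 0.047. Leaving out 1 library gave 4 to 6 members called higher in ref6C against WT and 7 to 9 lower in elf6-3ref6Cjmj13G against ref6-3, and no other member count changed. Of the lost calls, 8 were of GRP17 and GRP16 in elf6-3ref6Cjmj13G against ref6-3; requiring 1 CPM in at least 3 libraries gave GRP17 an adjusted p of 0.052 there. With the replicate block, 9 members were called lower in ref6-3 against WT, 5 higher in ref6C against WT and 9 lower in both combined mutants. The replicate numbers did not pair the libraries: the correlation of deviations between same-numbered libraries lay between -0.107 and 0.101 over 30 pairs. The cause of these changes was not tested. Differences of under 0.1 log2 units sit near the threshold at this depth.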
